A study of Mus musculus with 15 samples.

Results

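The BMP and Id genes followed here are 10 genes taken by symbol from each of 4 deposited comparison tables, out of 27179 genes in all. They are the ligands Bmp2, Bmp4 and Bmp7, the target genes Id1, Id2, Id3 and Id4, and the inhibitors Smad6, Smad7 and Bambi. The cells were mouse induced renal tubular epithelial cells (iRECs), a line made by turning fibroblasts into tubule-like epithelium with introduced transcription factors. Bulk RNA was sequenced from 5 kinds of culture. Cells grew in Matrigel, which is extracted from basement membrane, in the clot protein fibrin, in collagen I, in a bioprinted mix of fibrin with collagen I (the printed cultures), or on flat plates (2D). Each of the 5 conditions had 3 libraries, from passages 35, 48 and 53 of that 1 line. All were kept in renal epithelial growth medium and harvested on day 7. The gels were cast by hand except in the printed cultures, which were made with an inkjet printer. The labels give guided growth for the printed cultures and self assembly for all other cultures, 2D among them. The table of the printed cultures is named for collagen, whereas the labels of those libraries give both fibrin and collagen I.

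Bone morphogenetic proteins (BMPs) are secreted ligands that bring together receptor kinases at the cell surface. The active receptors phosphorylate SMAD1, SMAD5 and SMAD9, which enter the nucleus with SMAD4 and switch on genes, among which the Id genes are classical direct targets. Id proteins hold a helix-loop-helix domain without a DNA-binding region. They tie up E proteins such as the product of Tcf3 and so hold back differentiation in many cell types. SMAD6, SMAD7 and the decoy receptor BAMBI dampen the signal and are themselves induced by it. In the developing kidney BMP7 keeps nephron progenitors alive, and adult tubule cells are a known source of it.

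Promoters from the RefSeq table (build GRCm38.p6) were searched for 5 of the 10 genes. Those of Id1, Bmp2, Bmp7, Smad7 and Bambi were not searched. Each window spanned 250 bases before and 50 bases after the annotated start. The genes searched were Id2, Id3, Id4, Smad6 and Bmp4. The promoters of the 3 Id genes among them are shown because each of these genes rose in at least 1 gel. Capitals mark GGCGCC, a GC-rich palindrome bound by SMAD1 and SMAD5, and CAGAC, a SMAD-binding sequence, each searched on both strands. The promoter of Id2 lies at chr12:25096043-25096342 on the minus strand, that of Id3 at chr4:136143572-136143871 on the plus strand, and that of Id4 at chr13:48260866-48261165 on the plus strand.
Id2: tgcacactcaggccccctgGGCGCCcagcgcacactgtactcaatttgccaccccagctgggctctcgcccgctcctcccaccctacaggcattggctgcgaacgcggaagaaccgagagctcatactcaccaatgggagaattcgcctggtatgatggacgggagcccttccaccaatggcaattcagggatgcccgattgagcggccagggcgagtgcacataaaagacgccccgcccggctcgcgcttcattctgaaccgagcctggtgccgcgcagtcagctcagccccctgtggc
Id3: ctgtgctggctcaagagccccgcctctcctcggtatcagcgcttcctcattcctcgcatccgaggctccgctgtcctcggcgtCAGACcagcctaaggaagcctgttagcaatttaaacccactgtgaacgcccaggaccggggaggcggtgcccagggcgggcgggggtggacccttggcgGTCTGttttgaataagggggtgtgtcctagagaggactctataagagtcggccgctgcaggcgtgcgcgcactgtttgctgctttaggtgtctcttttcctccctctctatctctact
Id4: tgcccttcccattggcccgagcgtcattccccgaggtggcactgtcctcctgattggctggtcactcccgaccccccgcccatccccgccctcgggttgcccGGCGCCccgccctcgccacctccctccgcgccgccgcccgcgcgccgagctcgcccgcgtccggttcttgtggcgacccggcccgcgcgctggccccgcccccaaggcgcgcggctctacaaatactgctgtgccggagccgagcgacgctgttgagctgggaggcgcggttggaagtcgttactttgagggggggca

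Id2 held 1 copy of GGCGCC, starting 231 bases before the gene start, and Id4 held 1 copy, starting 148 bases before it. Id3 held no GGCGCC but 2 copies of CAGAC, 1 on each strand, starting 167 and 68 bases before the gene start. Neither motif was in the window of Smad6 or Bmp4. Among 32851 promoter windows of the same length, 11.9% held GGCGCC, 49.6% held CAGAC and 5.24% held both. The GC content was 63.3% for Id2, 60% for Id3 and 73.3% for Id4, against a median of 52.7% over all windows.

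For each gene the deposited tables hold a base mean and a fold change, so values in single libraries cannot be shown and the spread over libraries enters only through the standard error. Levels below were computed from the base mean (the mean of size-factor normalized reads over the 6 libraries of a table) and the fold change in the authors' deposited tables. Per kilobase of exon, Id2 had the highest level of the 10 genes in 2D, 1918 normalized reads. Smad7 followed at 393, Bmp7 at 319, Id1 at 271 and Id3 at 232 normalized reads per kilobase. Bmp4 stood at 119, Smad6 at 113, Id4 at 7.29, Bambi at 2.27 and Bmp2 at 0.685 normalized reads per kilobase. Id2 was therefore the main Id transcript, and Bmp7 the main ligand of the 3. Whether neighbours in this order differ beyond the spread between libraries cannot be told from the tables. In Matrigel, Id1 reached 926 normalized reads per kilobase and stood second after Id2, at 4179. The same order held in fibrin, with 891 for Id1 and 2829 for Id2. Id1 was also second after Id2 in collagen I, at 578, and in the printed cultures, at 412, where Smad7 followed at 360.

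**Figure D1:**
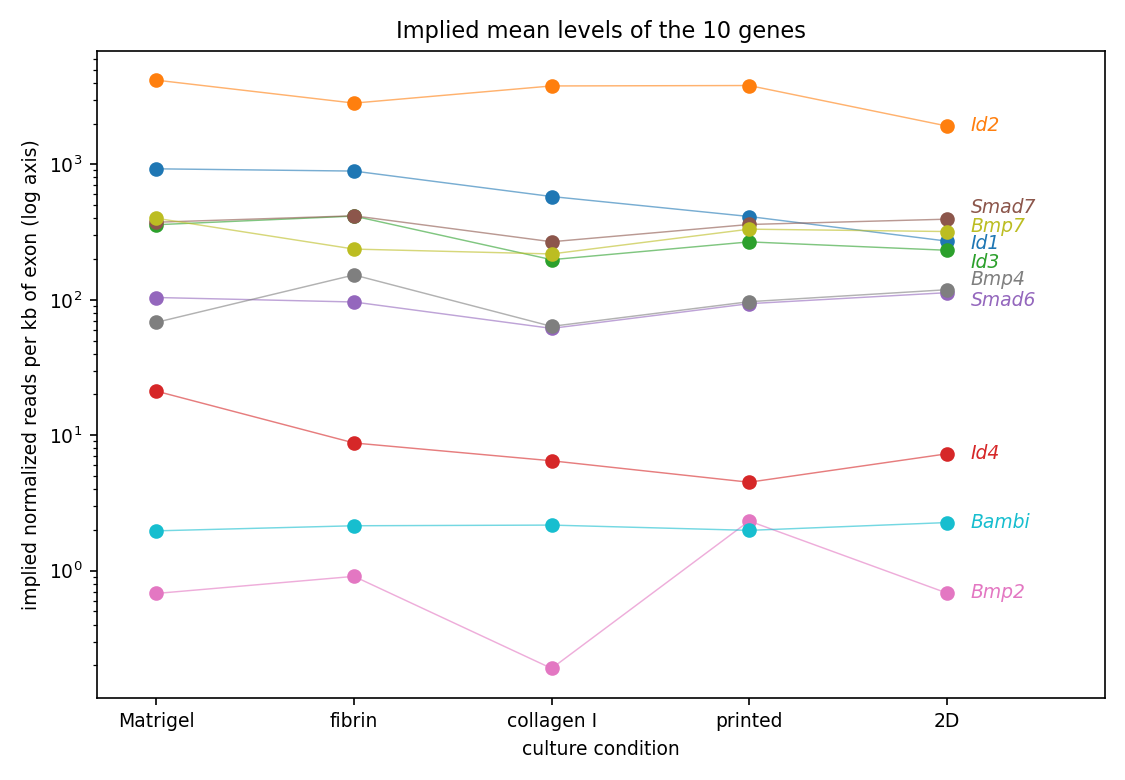
Implied mean levels of the 10 genes, in normalized reads per kilobase of exon on a log axis, for each culture condition; each point is 1 value computed from the authors' base mean and fold change, the 2D point is the median over the 4 tables, and no spread between libraries is available. Id2 lies on top at 1918 or more in every condition, and Id1 ranges from 926 in Matrigel to 271 in 2D.

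The comparisons with 2D asked how each microenvironment changed these cells. Id genes rose in the 3 gels cast by hand, Bmp4 fell in collagen I, and no other of the 10 genes passed. A gene is said to have risen or fallen where the authors' adjusted p was under 0.05. In Matrigel 3 of 9 genes with an adjusted p rose (Id1, Id2 and Id4) and none fell, against 6.36% of all genes that changed, 4.03% that rose and 2.32% that fell. In fibrin 2 of 9 rose (Id1 and Id3) and none fell, against 8.3% of all genes changed, 5.19% risen and 3.11% fallen. In collagen I 2 of 9 rose (Id1 and Id2) and 1 fell (Bmp4), against 11.2% changed, 6.51% risen and 4.65% fallen. In the printed cultures none of 10 passed, against 3.18% of all genes changed, 2.51% risen and 0.675% fallen. Of the 10, 3 (Id1, Id2 and Bmp2) had an unadjusted p under 0.05, against 11.4% of all genes. With the spread of all Wald statistics taken from the data (an empirical null), 2 of the 9 genes passed in Matrigel (Id1 and Id2) against 2.55% of all genes, 1 in fibrin (Id1) against 2.3%, none in collagen I against 1.04% and none in the printed cultures against 1.79%. All 4 comparisons share the same 2D libraries, so they are not independent of one another. The median log2 fold change of the genes with an adjusted p was 0.30 in Matrigel, 0.15 in fibrin, -0.09 in collagen I and -0.07 in the printed cultures. Over all genes tested it was -0.0039, 0.0037, 0.010 and 0.010. In bulk RNA, fewer cells that express a gene and less RNA per cell cannot be told apart.

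**Figure D2:**
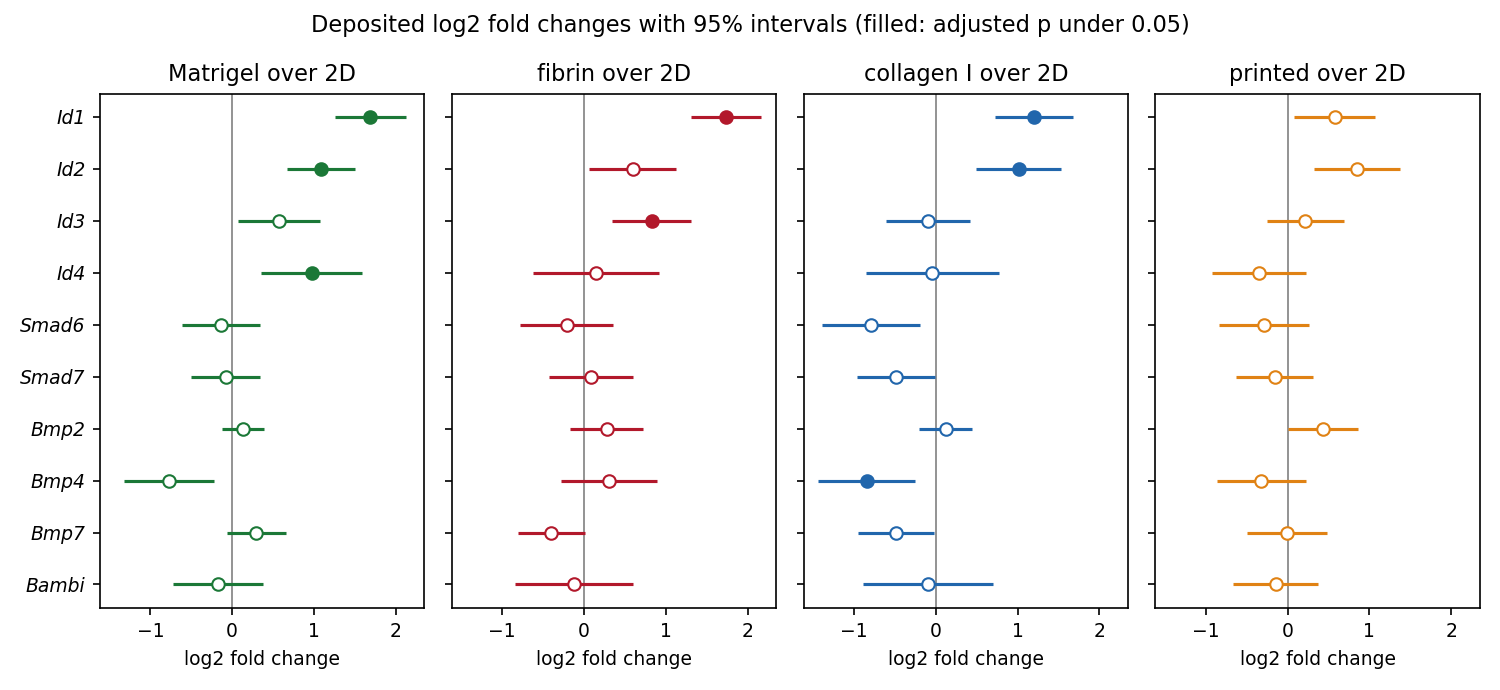
Log2 fold changes of the 10 genes over 2D in the authors' deposited tables, 1 panel per microenvironment (3 libraries against 3); lines are 95% intervals from the standard errors and filled points passed at adjusted p under 0.05. Id1 lies to the right of 0 in all panels, at 1.69, 1.74, 1.20 and 0.58, and Smad7 lies within 0.49 of 0 in all of them.

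Id1 (gene 15901, chromosome 2, 152736251 to 152737410, GRCm38.p6), a common readout of BMP signalling, rose in all 3 hand-cast gels. Its implied level was 1074 normalized reads in Matrigel against 333 in 2D, 1034 in fibrin against 309 in 2D, and 671 in collagen I against 292 in 2D. In the printed cultures it was 478 normalized reads, against 320 in 2D. The log2 fold change in the authors' deposited tables was 1.69 ± 0.22 (SE, 3 libraries against 3) in Matrigel, a fold of 3.23, with a DESeq2 adjusted p of 5.6e-12. In fibrin it was 1.74 ± 0.22 in the authors' deposited table, a fold of 3.34, with DESeq2 adjusted p = 8.23e-13. Ranked by p-value, Id1 was gene 38 of 19384 with a p-value in Matrigel and gene 33 of 19431 in fibrin. In collagen I the authors' deposited table had a log2 fold change of 1.20 ± 0.24, with DESeq2 adjusted p = 5.06e-05. Under the empirical null, the Id1 adjusted p was 4.42e-07 in Matrigel, 1.86e-06 in fibrin and 0.107 in collagen I, where the call was lost. The value in the printed cultures was 0.58 ± 0.25 in the authors' deposited table and did not pass (DESeq2 adjusted p = 0.28), with a 95% interval from 0.08 to 1.07.

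Id2 (gene 15902, chromosome 12, 25093799 to 25096092), whose promoter holds the GGCGCC shown above, rose in Matrigel and collagen I. Whether that motif had a part in the rise was not tested. Its implied level was 10188 normalized reads in Matrigel against 4785 in 2D, and 9233 in collagen I against 4569.6 in 2D. In fibrin it was 6897 against 4569 in 2D, and in the printed cultures 9301 against 5176 in 2D. All 4 microenvironments thus lay above 2D, with the value in fibrin nearest to it. The log2 fold change in the authors' deposited tables was 1.09 ± 0.21 in Matrigel (DESeq2 adjusted p = 2.1e-05) and 1.01 ± 0.26 in collagen I (DESeq2 adjusted p = 0.00289). Values of 0.59 ± 0.27 in fibrin (DESeq2 adjusted p = 0.183) and 0.85 ± 0.27 in the printed cultures (DESeq2 adjusted p = 0.0509) in the authors' deposited tables did not pass. Under the empirical null the collagen I call was lost, with adjusted p = 0.341, and the Matrigel call was kept at 0.00364. For the printed cultures the adjusted p was 0.0287 when p-values were adjusted over the 4 tables together and 0.0474 with a base mean of 10 or more. It was 0.155 under the empirical null, 0.0659 without the filter on base mean and 0.0571 with the median fold change subtracted.

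Id3 (gene 15903, chromosome 4, 136143822 to 136145392), which is often expressed alongside Id1, rose in fibrin. The implied level was 743 normalized reads in fibrin against 418 in 2D and 641 in Matrigel against 431 in 2D. It was 354 in collagen I against 378 in 2D, and 479 in the printed cultures against 413 in 2D. Collagen I was thus the 1 microenvironment whose implied level lay below 2D. The log2 fold change in fibrin was 0.83 ± 0.25 in the authors' deposited table (DESeq2 adjusted p = 0.0135), and this call was lost under the empirical null (adjusted p = 0.233). In Matrigel the authors' deposited table had 0.57 ± 0.26 (DESeq2 adjusted p = 0.204), in collagen I -0.09 ± 0.26 and in the printed cultures 0.22 ± 0.24.

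Id4 (gene 15904, chromosome 13, 48261116 to 48266028), the Id protein that is known to act partly against the other 3, rose in Matrigel at a low level. Its implied level there was 81.4 normalized reads, against 41.5 in 2D. The other tables gave 33.8 in fibrin against 30.5 in 2D, 24.9 in collagen I against 25.7 in 2D, and 17.3 in the printed cultures against 22.0 in 2D. The log2 fold change in Matrigel was 0.97 ± 0.32 in the authors' deposited table (DESeq2 adjusted p = 0.0366), and the call was lost under the empirical null (adjusted p = 0.256). An alternative took the median 2D level of the 3 other tables as given and the rest of 2 × base mean as the Matrigel level, in place of the 81.4 above. It gave a log2 ratio of 1.92 in Matrigel. The same step for the other tables gave 0.59 in fibrin, -0.60 in collagen I and -1.78 in the printed cultures. The authors' deposited tables had log2 fold changes of 0.15 ± 0.39 in fibrin, -0.04 ± 0.42 in collagen I and -0.35 ± 0.29 in the printed cultures. A change in Id4 smaller than 0.93 to 1.16 on the log2 scale, depending on the table, would not have passed.

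The inhibitors of the pathway did not pass in any comparison. Smad6 (gene 17130, chromosome 9, 63953076 to 64022085), which blocks mainly the BMP branch, had an implied level of 333 normalized reads in Matrigel against 365 in 2D. It had 309 in fibrin against 357 in 2D, 197 in collagen I against 342 in 2D, and 299.9 in the printed cultures against 365 in 2D. The lowest value, in collagen I, had a log2 fold change of -0.80 ± 0.31 in the authors' deposited table (DESeq2 adjusted p = 0.0717). Smad7 (gene 17131), which blocks both the BMP and the TGF-beta branch, was more abundant, with implied levels of 1689, 1884, 1212 and 1625 normalized reads in Matrigel, fibrin, collagen I and the printed cultures. Its implied levels in 2D ran from 1698 to 1815 normalized reads over the 4 tables. The log2 fold changes of Smad7 in the authors' deposited tables were -0.08 ± 0.22, 0.09 ± 0.26, -0.49 ± 0.25 and -0.16 ± 0.24 in the same order. Changes of Smad7 up to 0.64 to 0.75 on the log2 scale would not have passed. Bambi (gene 68010) had low levels, with base means of 10.6 to 11.4 normalized reads and log2 fold changes from -0.17 to -0.09 in the authors' deposited tables.

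Among the ligands, Bmp4 fell in collagen I. Bmp4 (gene 12159, chromosome 14, 46383525 to 46390669), known in kidney development from the cells around the ureter, had an implied level of 143 normalized reads in collagen I against 257 in 2D. Matrigel had 153 against 261 in 2D, fibrin 343 against 278 in 2D, and the printed cultures 218 against 272 in 2D. The log2 fold change in the authors' deposited tables was -0.84 ± 0.30 in collagen I (DESeq2 adjusted p = 0.0469) and -0.77 ± 0.28 in Matrigel (DESeq2 adjusted p = 0.0768). In fibrin it was 0.30 ± 0.30 and in the printed cultures -0.32 ± 0.28 in the authors' deposited tables. The collagen I call was close to the threshold and was lost without the authors' filter on low base means (adjusted p = 0.0655), over the 4 tables together (0.0654) and under the empirical null (0.663).

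Bmp7 (gene 12162, chromosome 2, 172868012 to 172940321), the main kidney BMP, did not pass in any comparison. The implied level was 1605 normalized reads in Matrigel against 1308 in 2D, 951 in fibrin against 1255 in 2D, 876 in collagen I against 1226 in 2D, and 1335 in the printed cultures against 1336 in 2D. Its log2 fold changes in the authors' deposited tables were 0.30 ± 0.18, -0.40 ± 0.21, -0.49 ± 0.23 and -0.0015 ± 0.25 for these 4. The value in Matrigel was above 0 and those in fibrin and collagen I were below it. The 95% intervals in Matrigel (from -0.07 to 0.66) and fibrin (from -0.81 to 0.01) held 0. That in collagen I ran from -0.95 to -0.03. Changes of Bmp7 under 0.54 in Matrigel and 0.79 in the printed cultures, on the log2 scale, would not have passed. Bmp2 (gene 12156, chromosome 2, 133552159 to 133562896), a potent inducer of Id genes in many cells, was hardly detected. Its base mean was 0.648 to 7.20 normalized reads, and only the table of the printed cultures gave it an adjusted p (0.432 by DESeq2).

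Differences between microenvironments were tested over 6 pairs as the difference of the authors' fold changes over the root of their summed squared standard errors, with Benjamini-Hochberg adjustment over all genes of a pair. Id1 was lower in the printed cultures than in fibrin, by a log2 difference of -1.16 ± 0.33 with adjusted p = 0.0411. That pair was the 1 in which any of the 9 genes tested passed, and 1.4% of all genes differed in it. When p-values were adjusted over the 6 pairs together, this Id1 call was lost. The printed cultures had Id1 at a log2 difference of -0.62 from collagen I, with a 95% interval from -1.31 to 0.07. Between Matrigel and the printed cultures the log2 difference of Id1 was 1.11 ± 0.33 (adjusted p = 0.106), and between Matrigel and fibrin it was -0.05, with an interval from -0.66 to 0.56. For Id2 the 95% intervals of all 6 differences held 0, and the differences lay between -0.42 and 0.50.

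None of the 9 genes passed in the other 5 pairs, in which 0.89% of all genes differed for printed minus collagen I, 0.478% for Matrigel minus collagen I, 1.13% for Matrigel minus fibrin, 0.612% for Matrigel minus printed and 0.548% for fibrin minus collagen I. Of the 9 genes, an unadjusted p under 0.05 was reached by none, 1, 2, 2 and 2 in these pairs, against 7.05%, 6.49%, 6.34%, 4.65% and 2.96% of all genes in the same order. Bmp4 was among them, with a log2 difference of -1.07 ± 0.41 for Matrigel minus fibrin and 1.15 ± 0.43 for fibrin minus collagen I. Bmp7 had 0.78 ± 0.30 for Matrigel minus collagen I and 0.70 ± 0.28 for Matrigel minus fibrin. Id4 had 1.32 ± 0.43 for Matrigel minus printed, and Id3 had 0.92 ± 0.36 for fibrin minus collagen I. These standard errors hold the spread of the shared 2D libraries in both terms and are therefore wide. With an allowance for the shared libraries, 1 gene (Bmp7) passed for Matrigel minus collagen I, against 2.76% of all genes. With it, 2 genes each passed for Matrigel minus fibrin (Bmp4 and Bmp7, against 3.59% of all genes), Matrigel minus printed (Id1 and Id4, against 2.49%) and fibrin minus collagen I (Id3 and Bmp4, against 1.65%).

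**Figure D3:**
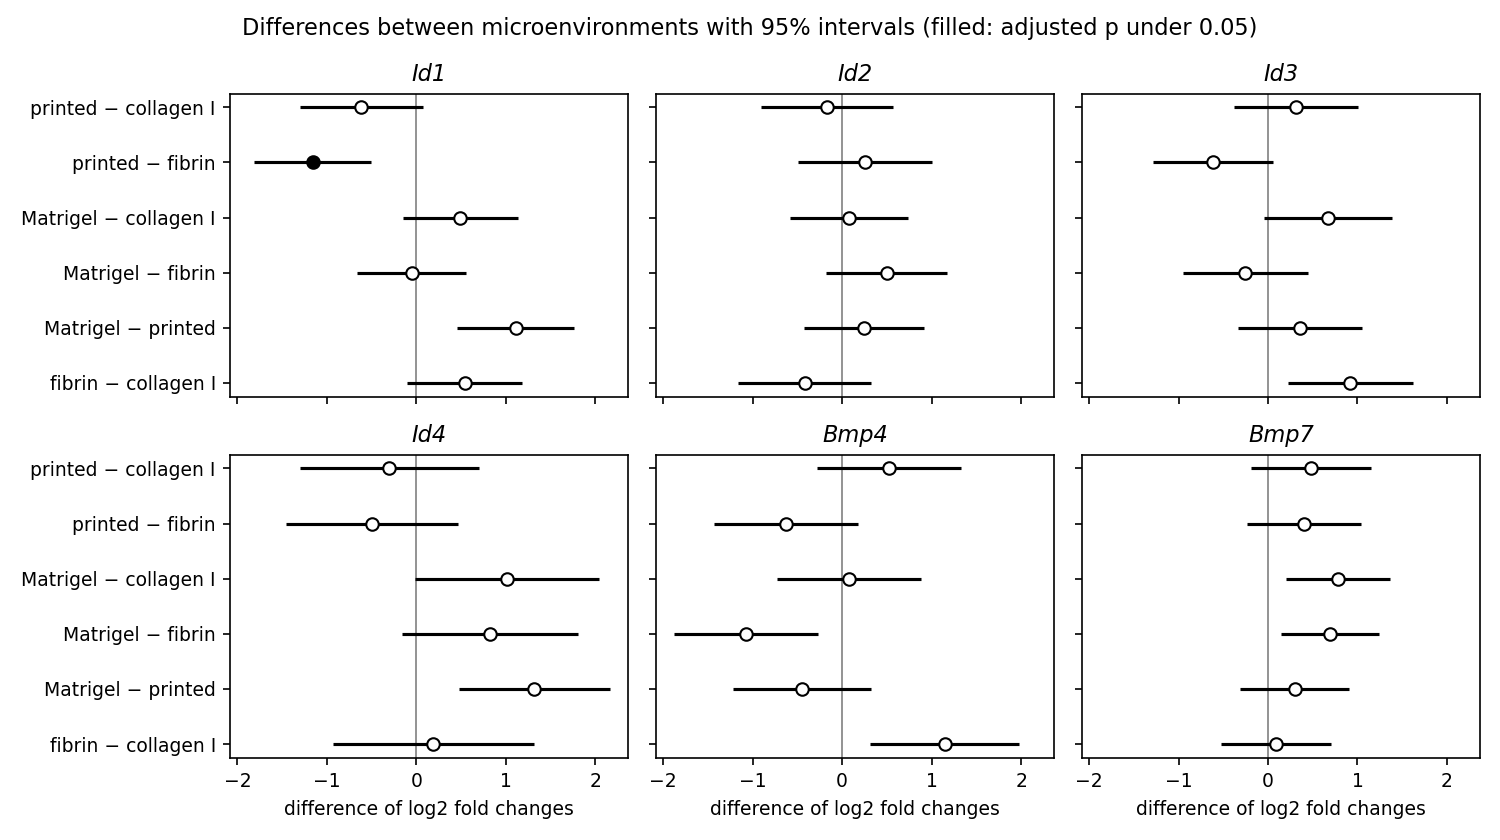
Differences of log2 fold changes between pairs of microenvironments for 6 of the genes; lines are 95% intervals from the standard errors and the filled point passed at adjusted p under 0.05. The Id1 difference of -1.16 between printed cultures and fibrin is the 1 filled point, and the intervals of Bmp7 for Matrigel minus collagen I and Matrigel minus fibrin lie to the right of 0.

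The rest of the pathway was followed in 7 lists of 79 further genes: other ligands, receptors, secreted antagonists, SMADs and their regulators, other responsive genes, E proteins and, for contrast, TGF-beta targets. Among them 3 of 55 genes with an adjusted p fell and none rose in Matrigel. In fibrin 1 rose and 4 fell of 56, in collagen I 2 rose and 4 fell of 53, and in the printed cultures 2 rose and none fell of 56. The fallen share was 5.45% in Matrigel, 7.14% in fibrin and 7.55% in collagen I, against 2.32%, 3.11% and 4.65% of all genes. The risen share was 1.79% in fibrin, 3.77% in collagen I and 3.57% in the printed cultures, against 5.19%, 6.51% and 2.51% of all genes.

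Of the other ligands, Bmp6, known for inducing hepcidin in the liver, fell in all 3 hand-cast gels. Its implied level was 1545 normalized reads in Matrigel against 2734 in 2D, 998 in fibrin against 2677 in 2D, and 1479 in collagen I against 2620.4 in 2D. In the printed cultures it was 2539 against 2840.04 in 2D. The lowest implied level of Bmp6 was thus in fibrin, but its differences from the other hand-cast gels did not pass. The log2 difference was 0.60 ± 0.28 for Matrigel minus fibrin and -0.60 ± 0.32 for fibrin minus collagen I. The log2 fold change in the authors' deposited tables was -0.82 ± 0.18 in Matrigel (DESeq2 adjusted p = 0.000325), -1.42 ± 0.21 in fibrin (3.95e-09) and -0.82 ± 0.24 in collagen I (0.00805). The value of -0.16 ± 0.20 in the authors' deposited table of the printed cultures did not pass, and Bmp6 was higher in the printed cultures than in fibrin by a log2 difference of 1.26 ± 0.29 (adjusted p = 0.00245). In collagen I the call was lost under the empirical null (adjusted p = 0.422).

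Of 11 receptors and co-receptors, 9 or 10 had an adjusted p, and none passed in any of the 4 comparisons. Over all genes 6.36% changed in Matrigel, 8.3% in fibrin, 11.2% in collagen I and 3.18% in the printed cultures. The type I receptor gene Bmpr1a had log2 fold changes of -0.08 ± 0.19 in Matrigel, 0.13 ± 0.23 in fibrin, 0.25 ± 0.21 in collagen I and 0.36 ± 0.22 in the printed cultures in the authors' deposited tables. The type II receptor gene Bmpr2 had -0.41 ± 0.22, -0.13 ± 0.28, -0.19 ± 0.26 and 0.05 ± 0.25 in the same order in the authors' deposited tables. The medians over the receptors with an adjusted p were -0.12, -0.13, -0.19 and 0.15.

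Of 18 secreted antagonists and modulators, 2 of 10 with an adjusted p fell in Matrigel and 2 of 10 in fibrin. Over all genes 2.32% fell in Matrigel and 3.11% in fibrin. In collagen I 2 of 9 fell and 1 rose, against 4.65% and 6.51% of all genes. In the printed cultures 2 of 10 rose, against 2.51% of all genes. Fst encodes follistatin, which binds activins and several BMPs. It had an implied level of 3638 normalized reads in Matrigel against 10922 in 2D, 4794 in fibrin against 10784 in 2D, and 4019 in collagen I against 10748 in 2D. In the printed cultures it had 7271 against 11273 in 2D. Fst fell in the 3 hand-cast gels, with log2 fold changes in the authors' deposited tables of -1.59 ± 0.25 in Matrigel (DESeq2 adjusted p = 2.57e-08), -1.17 ± 0.31 in fibrin (0.00357) and -1.42 ± 0.24 in collagen I (2.5e-07). The fibrin call was lost under the empirical null (adjusted p = 0.124). In the printed cultures Fst stood at -0.63 ± 0.23 in the authors' deposited table and did not pass (DESeq2 adjusted p = 0.139).

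Fstl1, which encodes a secreted follistatin-like protein that binds BMP4, fell in Matrigel and collagen I. Its log2 fold change in the authors' deposited tables was -1.81 ± 0.22 in Matrigel (DESeq2 adjusted p = 5.75e-14) and -1.14 ± 0.23 in collagen I (6.39e-05), and the collagen I call was lost under the empirical null (adjusted p = 0.103). In fibrin it was 0.20 ± 0.28 in the authors' deposited table. Both differences from fibrin passed, with a log2 difference of -2.01 ± 0.35 for Matrigel minus fibrin (adjusted p = 9.48e-06) and 1.348 ± 0.36 for fibrin minus collagen I (0.0400). Chrd, which encodes the BMP-trapping protein chordin, fell in fibrin to 29.6 normalized reads, against 96.4 in 2D, with a log2 fold change of -1.70 ± 0.38 in the authors' deposited table (DESeq2 adjusted p = 0.000353). Matrigel had 107.8 normalized reads of Chrd against 107.3 in 2D, and the Matrigel minus fibrin difference was 1.71 ± 0.49 (adjusted p = 0.0426).

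Nbl1 and Nog, which encode secreted BMP antagonists, were the antagonists that rose. Nbl1 had an implied level of 311 normalized reads in collagen I against 101 in 2D, and 258 in the printed cultures against 123 in 2D. Its log2 fold change in the authors' deposited tables was 1.62 ± 0.33 in collagen I (DESeq2 adjusted p = 4.09e-05) and 1.08 ± 0.31 in the printed cultures (0.0246), and both calls were lost under the empirical null (adjusted p = 0.0998 and 0.0905). Nog encodes noggin and had 56.6 normalized reads in the printed cultures against 27.8 in 2D, with a log2 fold change of 1.03 ± 0.32 in the authors' deposited table (DESeq2 adjusted p = 0.0492). The Nog call was lost without the filter on base mean (adjusted p = 0.0637), with the median fold change subtracted (0.0548) and under the empirical null (0.152).

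**Figure D4:**
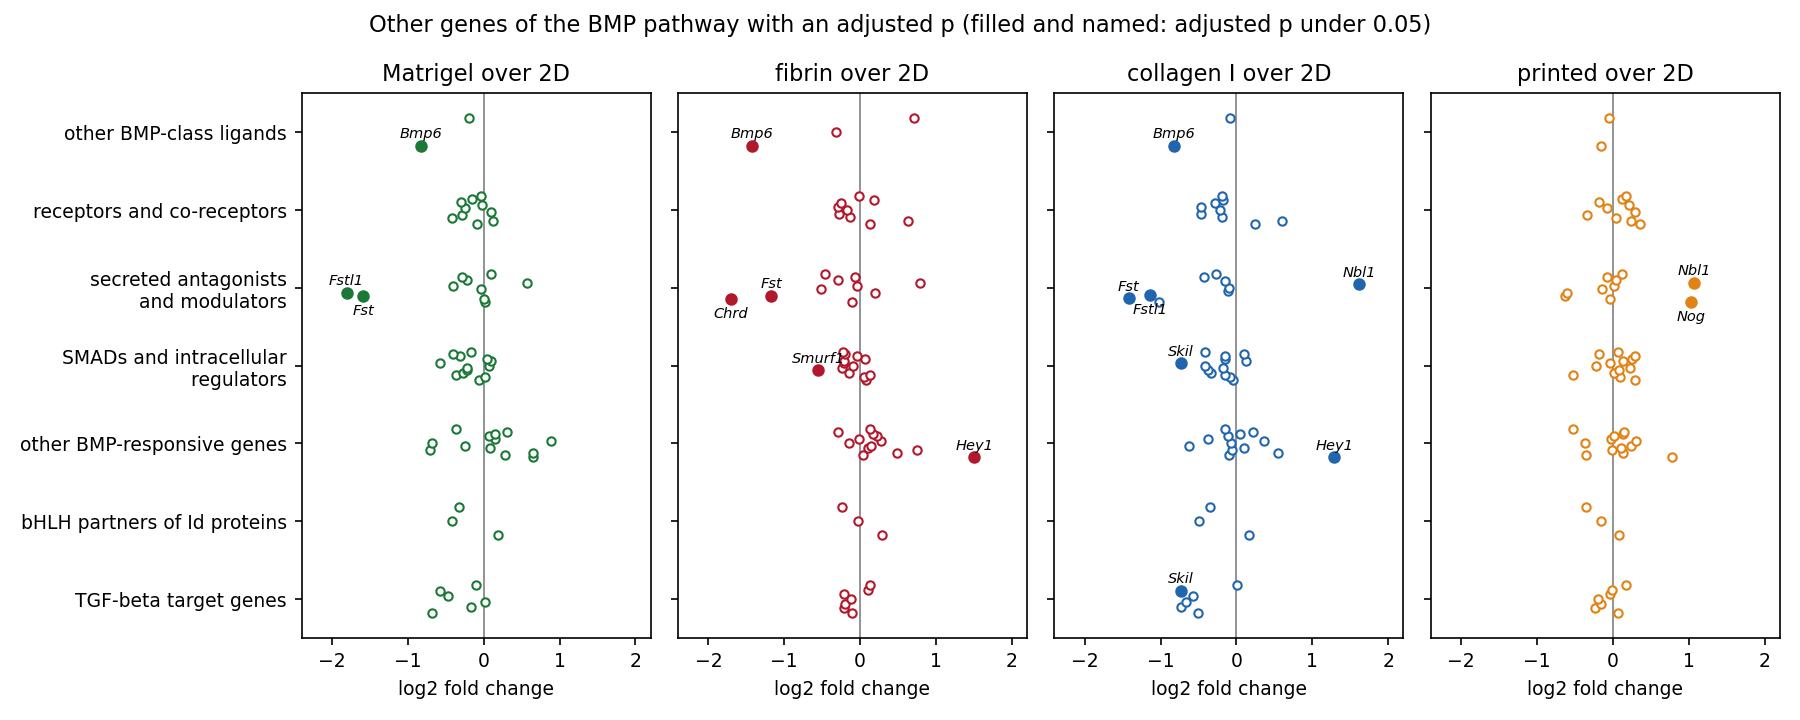
Log2 fold changes over 2D, in the authors' deposited tables, of the further pathway genes with an adjusted p, by list and microenvironment; filled points passed at adjusted p under 0.05. Fst lies at -1.59, -1.17 and -1.42 in the 3 hand-cast gels, and no receptor point is filled.

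Among the SMADs and their regulators, 13 genes with an adjusted p in every table, Smurf1 fell in fibrin and Skil in collagen I. Over all genes 3.11% fell in fibrin and 4.65% in collagen I. Smurf1 encodes a ubiquitin ligase that marks SMAD1 and SMAD5 for degradation, and its log2 fold change in fibrin was -0.55 ± 0.19 in the authors' deposited table (DESeq2 adjusted p = 0.0474). Skil encodes a SMAD co-repressor that is also a TGF-beta target, and its log2 fold change in collagen I was -0.73 ± 0.24 in the authors' deposited table (DESeq2 adjusted p = 0.0304). Both calls were lost under the empirical null, with adjusted p = 0.396 for Smurf1 and 0.596 for Skil. The Smurf1 call was also lost without the filter on base mean (adjusted p = 0.0629) and over the 4 tables together (0.0532). Skil kept its call in both settings (0.0425 and 0.0427). Of the genes for the signal carriers, Smad1 ran from -0.07 to 0.30, Smad5 from -0.09 to 0.09 and Smad4 from -0.34 to 0.02 on the log2 scale in the authors' deposited tables, and none passed.

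Of 18 other BMP-responsive genes, 13 had an adjusted p in each table, and Hey1 was the 1 that passed. Over all genes 5.19% rose in fibrin and 6.51% in collagen I. Hey1 encodes a transcriptional repressor that both Notch and BMP signals induce. Its implied level was 190.1 normalized reads in fibrin against 66.9 in 2D, 156 in collagen I against 63.9 in 2D, 107.8 in Matrigel against 68.6 in 2D, and 123 in the printed cultures against 71.9 in 2D. Hey1 rose in fibrin by 1.51 ± 0.31 (DESeq2 adjusted p = 7.28e-05) and in collagen I by 1.29 ± 0.33 (0.00214) on the log2 scale in the authors' deposited tables, and the collagen I call was lost under the empirical null (adjusted p = 0.313). The E protein genes Tcf3, Tcf4 and Tcf12, whose products Id proteins bind, had log2 fold changes between -0.49 and 0.29 in the authors' deposited tables, and none passed. Of the 8 TGF-beta targets, only Skil in collagen I passed, where 6 had an adjusted p and 4.65% of all genes fell.

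The genes whose 4 log2 fold changes lay nearest those of Id1 were Tm4sf20, Trib2, Selenop, Sgpp2 and Pcdh19, at Euclidean distances from 0.459 to 0.621 among 11174 genes with base means of 100 or more in all 4 tables. Each of the 5 passed in 3 comparisons. By the same measure Id2 was gene 179 from Id1 and Id3 gene 930. Nearest to Bmp7 were Cpne7, Ggt1, 4933439C10Rik, Tle3 and Dock1, at distances from 0.135 to 0.168, and nearest to Smad6 were Ctgf, Zfp532, Csf2ra, Wasf3 and Dnmt3a, from 0.0871 to 0.158. None of the 5 genes nearest Bmp7 passed in any comparison. Of those nearest Smad6, Csf2ra and Dnmt3a passed in 1 comparison each and the others in none. Smad7 was gene 412 from Smad6.

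The summed base means of the tables ran from 42789952 to 45388657 normalized reads. Tubule markers were present in every table (11 genes, with a summed level of 171312 normalized reads in Matrigel, 116957 in fibrin, 133573 in collagen I and 172611 in the printed cultures, against 137348 to 147376 in 2D). Epcam, Cdh1, Lrp2 and Cubn rose in Matrigel, Pax8 fell in fibrin and collagen I and Krt8 fell in collagen I, while Slc34a1 and Aqp1 had base means under 10. Fibroblast markers (7 genes) summed to 229 normalized reads in Matrigel, 108 in fibrin, 75.8 in collagen I and 195 in the printed cultures, against 281 to 332 in 2D. Of them, Col1a1 fell in fibrin and collagen I and Pdgfra fell in fibrin. The smooth muscle marker Acta2 fell in Matrigel and the printed cultures, and of the podocyte markers Podxl rose and Synpo fell in collagen I. No endothelial marker passed, and that list of 6 genes summed to 13.3 to 28.1 normalized reads in the 4 microenvironments against 14.9 to 25.8 in 2D. Of the immune markers, Cd68 and Csf1r rose in the printed cultures and Csf1r fell in Matrigel and collagen I. The part of these markers in the results on the BMP and Id genes was not tested.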

How the data were processed

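RNA of 15 libraries was sequenced, 3 for each of 5 conditions. The submitters' processing notes name DESeq2 1.22.1, featureCounts 1.6.3, STAR 2.6.0b-1, Trim Galore 0.4.3 and FastQC 0.72, and the build mm10. Whether strand was used, which annotation and which covariates: not given in the sources used. Per the file headers, the authors deposited for each microenvironment against 2D a base mean (a signal of normalized reads), a log2 fold change, its standard error on the log2 scale, a Wald score, a p-value and an adjusted p-value. The authors' tables hold no values per library, so DESeq2 was not refitted and the replicate spread enters only through the authors' standard errors. Replicates are passages of 1 line, so p-values do not cover the spread between lines. Whether they cover the spread between passages is not known, because the covariates are not given.

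Levels, differences between microenvironments, intervals (95%) and adjusted p-values of alternatives were computed with Python 3.11.15, pandas 2.3.3, numpy 2.4.6 and scipy 1.17.1, and the steps were tested on simulated data. In 2D a level is 2 × base mean / (1 + fold), and in the microenvironment it is that level times the fold. The fold is the authors' shrunken value. Exon lengths came from GENCODE on the same build. Named genes are all 10 genes, the genes of 7 pathway lists past an adjusted p of 0.05 in at least 1 comparison, and the 5 nearest patterns to Id1, Bmp7 and Smad6. Receptor, signal carrier, E protein and marker genes were named as well, after their values were seen. The 10 genes and the lists were chosen with earlier results of these data known. Coordinates are those of GRCm38.p6.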

Additional observations from a re-analysis of the deposited data

Results flagged for a closer look

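Id1 was flagged because its response differed between 2 microenvironments: its log2 fold change over 2D was 0.58 ± 0.25 in the printed cultures and 1.74 ± 0.22 in fibrin in the authors' deposited tables. The difference was -1.16 ± 0.33 (95% interval from -1.82 to -0.51), with an adjusted p of 0.0411 from a normal test on the DESeq2 values of all genes of the pair. The printed cultures differ from the fibrin gels in collagen I, in the printing and in guided growth in place of self assembly, so these cannot be told apart.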

How the results depend on the processing

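No paired analysis was possible because the deposited tables hold no values per library, so passages could be neither blocked nor left out in turn. In fibrin the count of the 10 genes that changed went down to 1 (Id1) at adjusted p under 0.01 (4.95% of all genes), with a log2 fold change of at least 1 in size (4.17%) and under the empirical null (2.3%), against 2 as reported. In collagen I it was 0 under the empirical null (1.04%), against 3. In the printed cultures it was 1 (Id2) at adjusted p under 0.1 (4.43%), with a base mean of 10 or more (3.52%) and over the 4 tables together (4.06%), against 0. The empirical null had SDs of the Wald score of 1.27 in Matrigel, 1.351 in fibrin, 1.57 in collagen I and 1.11 in the printed cultures, and it called 373, 336, 146 and 270 genes, against 928, 1215, 1570 and 481 as deposited. Between microenvironments, the printed minus fibrin count was 0 over the 6 pairs together (1.19%), against 1. With the covariance of the shared 2D libraries it was 1 for Matrigel minus collagen I (2.76%), 2 for Matrigel minus fibrin (3.59%), 2 for Matrigel minus printed (2.49%) and 2 for fibrin minus collagen I (1.65%), and under the empirical null 2 for Matrigel minus printed (1.62%) and 2 for fibrin minus collagen I (3.75%), against 0 each. The cause of these shifts was not tested. No called fold change reversed. With the median 2D level of the other 3 tables, and the microenvironment level as 2 × base mean less it, 10 of 39 fold changes moved by more than their standard error. Low levels limit Bmp2, Bambi and Id4.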

Other observations

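Some results lay at the threshold. Chrd in collagen I had an adjusted p of 0.05004 in the authors' deposited table (DESeq2), and 0.0401 with the median fold change subtracted. It did not pass without the filter on base mean (0.0700), over the 4 tables together (0.0698) or under the empirical null (0.674). Skil in Matrigel had 0.0510 in the authors' deposited table (DESeq2), and 0.0475 over the 4 tables together. Skil there did not pass without the filter on base mean (0.0678) or under the empirical null (0.322). Bmp2 in the printed cultures had a base mean of 7.20 normalized reads, and its log2 ratio was 2.47 with the median 2D level of the other tables and the printed level as 2 × base mean less it, against 0.43 ± 0.22 in the authors' deposited table.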
